A study of Mus musculus with 6 samples.

Results

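The genes examined here carry a cytidine analogue into the cell and process it: the carriers Slc29a1 and Slc29a2, the kinases Uck1, Uck2 and Dck, the deaminases Cda and Dctd, the ribonucleotide reductase subunits Rrm1 and Rrm2, and the nucleotide hydrolase Samhd1. They were taken as the probe sets whose only gene symbol in the array annotation was 1 of these 10 names, which gave 26 of the 45037 probe sets that are not controls. All 10 genes were measured, out of 18193 genes in all. RNA came from C2C12, an established mouse myoblast line that divides as single cells and can fuse into muscle fibres. Cells were seeded at 1500 per square centimetre and grown for 24 hours in DMEM with 10% newborn calf serum. The treated group then had 10 µM 5-azacytidine (5AC) in the same medium for 3 days, and the untreated group the medium alone. Total RNA of subconfluent cells was read on the GeneChip Mouse Genome 430 2.0 array, with 3 arrays for each group. No label states that replicates came from separate cultures; p-values therefore describe variation among these arrays alone, possibly technical. The study has a single line, dose and time.

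5AC is a ribonucleoside that enters cells mainly through equilibrative carriers. Uridine-cytidine kinases add its first phosphate, and most of it then goes into RNA; ribonucleotide reductase turns a smaller part into the deoxy form, which goes into DNA and traps DNA methyltransferases. Cytidine deaminase inactivates the free nucleoside. The same enzymes supply dividing cells with pyrimidine nucleotides, and the RNA of ribonucleotide reductase is known to be highest in S phase.

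After 5AC, RNA of Cda fell to 38.4% of its untreated mean, Dck to 62.5%, Rrm2 to 72.8% on the probe set that represents it, Uck2 to 79.4% and Rrm1 to 82.0%. Uck1 rose to 158.7%, while the carriers Slc29a1 and Slc29a2 and the deaminase gene Dctd did not pass the test. The representing probe set of Samhd1 rose to 115.6%, but the gene's second-brightest probe set was called lower (log2 change -0.35, limma adjusted p = 0.0401). The mean of all probe sets of Samhd1 did not pass (0.10, limma adjusted p = 0.668). In counts, by the representing probe sets, 5 of the 10 genes fell, 2 rose and 3 missed the threshold (limma, Benjamini-Hochberg adjusted p under 0.05 over all genes). Of all genes, 29.3% passed, 13.8% as lower and 15.5% as higher. These shares cover dim and bright genes alike and are not matched to the 10 genes in brightness. The median log2 change was -0.31 for the 10 genes and 0.01 for all genes. A log2 change here is the mean of log2(intensity + 1) in 5AC minus that in untreated cells, and each gene is represented by the probe set with the highest mean of these log2 values. The higher call of Samhd1 was absent whenever any single array was left out (adjusted p = 0.0674 to 0.0948).

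**Figure D1:**
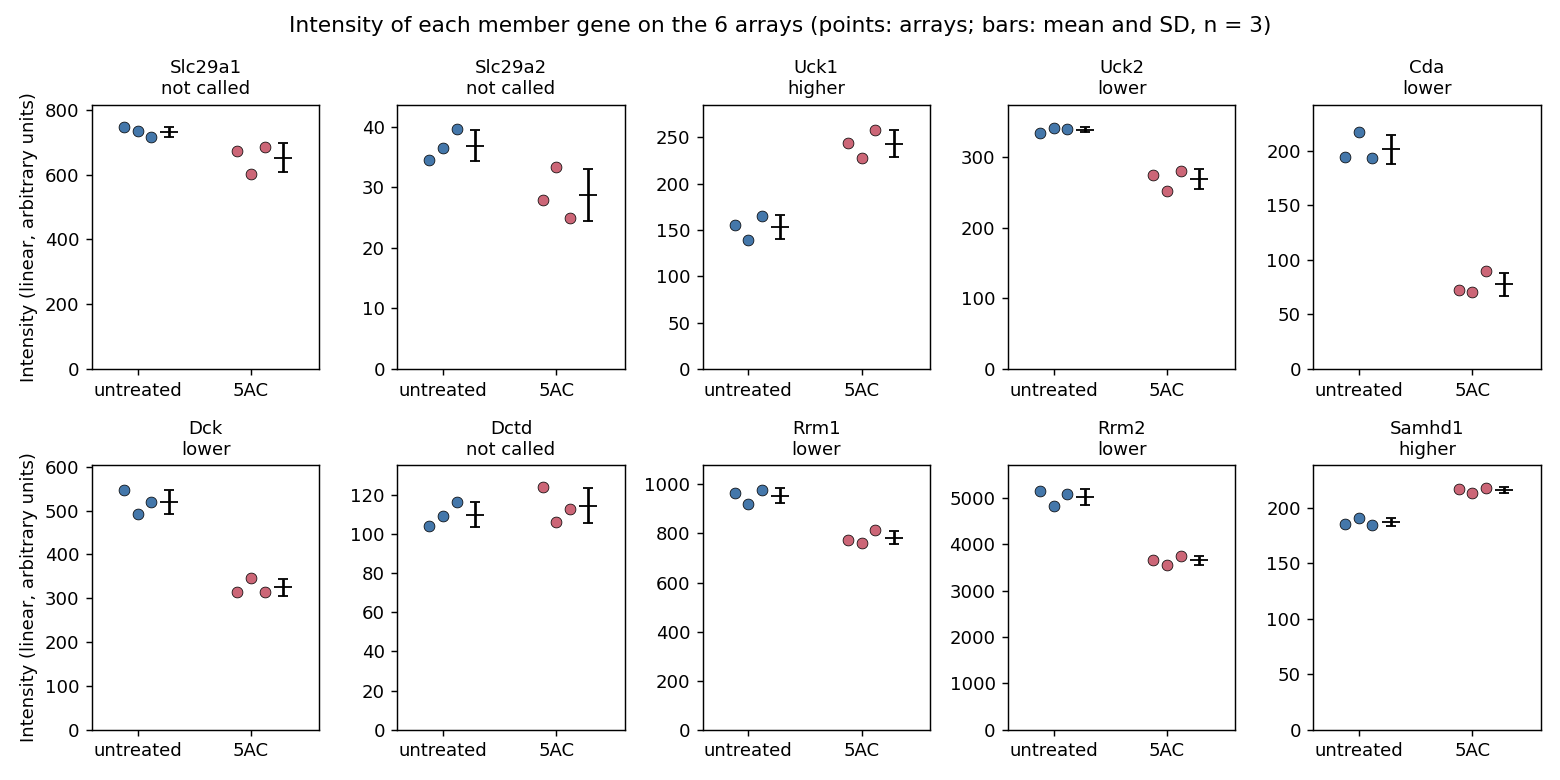
Intensity on a linear scale in arbitrary units, from 0, of the representing probe set of each gene; points are the 3 untreated and 3 5AC arrays and bars show mean ± SD (n = 3). The groups do not overlap for 9 of the 10 genes, Dctd being the exception, beside 45.3% of all genes, and Cda is lowest relative to its untreated level.

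The arrays were alike in overall level, with medians of 20.36 to 21.04. Log2 values correlated at 0.965 to 0.971 for arrays of the same group and at 0.949 to 0.954 for arrays of different groups. The number of arrays limits the precision. Of 6 myoblast marker genes, 5 were lower after 5AC and 0 higher, beside 13.8% lower and 15.5% higher among all genes. Their summed intensity was 3227 to 3460 on untreated and 2317 to 2361 on 5AC arrays, with Myod1, the myogenic master regulator, at 508 ± 33.8 and 349 ± 17.1 (mean ± SD, n = 3 each). Msc and Itga7 fell more, with log2 changes of -1.71 and -1.20, against -0.54 for Myod1. The markers of macrophages and leukocytes (6 genes), endothelium (5), epithelium (5) and adipocytes (4) had mean intensities of at most 63.7, and 0 of these 20 passed the test. Their sums overlapped between groups for 3 of the 4 lists. The epithelial sum was 88.6 to 99.4 untreated and 102.0 to 107.6 in 5AC, and its part in the results was not tested. In RNA from whole cultures, fewer cells of a kind and less RNA per cell cannot be told apart.

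The carriers come first in the path of the drug. Slc29a1 encodes the equilibrative carrier ENT1 of the plasma membrane. Its intensities were 748, 735 and 716 in untreated cells and 672, 602 and 685 in 5AC cells. The groups did not overlap, as was so for 45.3% of all genes. Its log2 change was -0.17 ± 0.07 (SE), with a 95% interval of -0.35 to 0.01 and adjusted p = 0.147. Among the 18 alternatives run it passed, as lower, only with an intensity trend in the model (adjusted p = 0.0273).

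Slc29a2, which encodes the related carrier ENT2, was dim, at 34.6, 36.4 and 39.6 untreated and 27.8, 33.4 and 24.9 in 5AC. All 5AC arrays were below the untreated ones. The log2 change was -0.36 ± 0.12, or -0.25 with 16 instead of 1 added before the log. The interval was -0.67 to -0.04 without adjustment, and the adjusted p was 0.0918. It passed as lower without 5AC replicate 2 (adjusted p = 0.0406) and when only genes above the median probe-set mean were tested (adjusted p = 0.0382). A second probe set of Slc29a2, 1447748_x_at, lay below that median with overlapping groups. Within arrays, log2 Slc29a1 minus log2 Slc29a2 was 4.14 to 4.40 untreated and 4.13 to 4.73 in 5AC, and these ranges overlap (difference 0.19, pooled SD 0.23, exact two-sided permutation p = 0.50, also 0.50 after adjustment over the 5 gene pairs compared).

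The uridine-cytidine kinases, which add the first phosphate to 5AC, went in opposite directions. Uck1 had intensities of 156, 139 and 165 in untreated cells and 244, 228 and 258 in 5AC cells, so every 5AC array was above every untreated array. The log2 change was 0.66 ± 0.09 (adjusted p = 0.00539), a larger increase than that of 90.4% of all genes. It was called higher with each array left out in turn (adjusted p = 0.0124 to 0.0267). Uck1 has a single probe set.

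Uck2 encodes the paralogue that is known for the higher activity on cytidine analogues. It went from 335, 341 and 341 to 275, 252 and 279.9, again without overlap. The log2 change was -0.33 ± 0.06 (adjusted p = 0.0143). It missed the threshold without untreated replicate 2 (adjusted p = 0.0527) and with the mean of its probe sets in place of the brightest (log2 change -0.31, adjusted p = 0.10).

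Uck2 had 6 probe sets, all with a log2 change below 0. That of the dimmest, 1417137_at, gives no clear direction: its means were 8.01 untreated and 8.15 in 5AC, and its log2 change was -0.0068 with 16 added. In a fit of all 45037 probe sets, where 16.9% passed, 8.75% as lower and 8.15% as higher, 3 of the 6 were lower: 1448604_at at -0.33 ± 0.07, 1439740_s_at at -0.42 ± 0.07 and 1426909_at at -0.58 ± 0.14. Probe set 1439740_s_at read 254, 258 and 258 untreated and 185, 200.5 and 192 in 5AC. Probe set 1426909_at read 61.4, 54.4 and 69.6 untreated and 45.3, 42.2 and 35.3 in 5AC. Neither had overlapping groups, and nor did 1448604_at. The other 3 lay between -0.23 and -0.11, with overlapping groups, and 1 of them, 1417137_at, was below the median probe-set mean. The adjusted p of 1448604_at and 1426909_at was above 0.05 with any single array left out (0.0716 to 0.127 over both). That of 1439740_s_at was 0.0467 to 0.0651, under 0.05 only without 5AC replicate 2.

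The difference between the kinases was also taken within each array, as log2 Uck1 minus log2 Uck2. It was -1.10, -1.29 and -1.04 on the untreated arrays and -0.17, -0.14 and -0.12 on the 5AC arrays. This ratio thus moved by 1.00 on the log2 scale (pooled SD 0.09). An exact two-sided permutation test gave p = 0.10, the smallest that 3 against 3 arrays allow, and 0.125 after adjustment over the 5 pairs. A ratio within an array shows unequal change, and intensities of different probe sets do not rank the genes by RNA level.

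The start regions of the uridine-cytidine kinase genes are shown because the paralogues moved apart, with any CCAAT box in capitals (CCAAT on either strand, a motif bound by NF-Y). Each runs from 250 bases before to 50 bases after the gene's start, from RefSeq (GRCm38.p6), at chr2:32260056-32260355 on the minus strand for Uck1 and chr1:167285078-167285377 on the minus strand for Uck2. Uck1 has 2 overlapping windows and the first listed is printed.
Uck1: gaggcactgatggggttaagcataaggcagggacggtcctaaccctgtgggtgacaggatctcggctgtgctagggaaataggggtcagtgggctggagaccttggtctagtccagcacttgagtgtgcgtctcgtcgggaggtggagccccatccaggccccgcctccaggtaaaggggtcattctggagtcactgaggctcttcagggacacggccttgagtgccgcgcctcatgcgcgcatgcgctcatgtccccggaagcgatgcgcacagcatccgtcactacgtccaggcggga
Uck2: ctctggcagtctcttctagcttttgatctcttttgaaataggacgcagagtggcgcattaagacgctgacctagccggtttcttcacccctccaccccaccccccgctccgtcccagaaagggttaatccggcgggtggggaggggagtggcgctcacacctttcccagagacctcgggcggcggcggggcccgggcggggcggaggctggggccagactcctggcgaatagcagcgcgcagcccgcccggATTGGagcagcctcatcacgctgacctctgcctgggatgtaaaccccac
The Uck2 window holds 1 CCAAT box, as ATTGG on the printed strand, and the printed Uck1 window has no such letters. Among all windows of this length, 37.4% hold CCAAT on either strand, so this contrast says little. CpG dinucleotides, where DNA methyltransferases act, number 18 in the Uck1 and 22 in the Uck2 window, against a median of 7 among all windows. No methylation was measured here.

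Cytidine deaminase, which turns 5AC and cytidine into uridine forms, had the largest change among the representing probe sets of the 10 genes. Cda was at 194, 217 and 193 on untreated arrays and at 72.3, 70.7 and 89.4 on 5AC arrays. The highest 5AC value was thus far below the lowest untreated value. Its mean went from 201 ± 13.4 to 77.4 ± 10.4, a log2 change of -1.37 ± 0.11 (-1.22 with 16 added; adjusted p = 0.00143). Of the 18193 genes, 193 had a more negative log2 change. Cda was called lower in the gene fit with each array left out (adjusted p = 0.00447 to 0.0106). It has 1 probe set, so no second measurement of it was at hand.

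Dctd, deoxycytidylate deaminase, acts on the deoxy monophosphate and not on the free nucleoside. It stood at 104, 109 and 116 untreated and at 124, 106 and 113 in 5AC, with overlapping groups. Its log2 change was 0.06 ± 0.08, with an interval of -0.15 to 0.27 and adjusted p = 0.673, and it was -0.0016 without 5AC replicate 1. Within arrays, log2 Cda minus log2 Dctd was 0.90, 0.98 and 0.73 untreated and -0.77, -0.58 and -0.34 in 5AC. That is a difference in change of -1.43 (pooled SD 0.18, exact permutation p = 0.10, adjusted 0.125).

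Dck encodes deoxycytidine kinase, which activates deoxycytidine and the deoxy analogue decitabine but is not known as the kinase of 5AC itself. Its representing probe set went from 546, 492 and 520.2 to 314, 346 and 314. The groups were far apart, and the log2 change was -0.68 ± 0.07 (adjusted p = 0.00272). The gene was called lower with each array left out (adjusted p = 0.0104 to 0.0166).

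The 3 probe sets of Dck gave closely similar changes. In the probe-set fit they were at -0.68 ± 0.08, -0.76 ± 0.08 and -0.78 ± 0.08, with adjusted p of 0.00764, 0.00550 and 0.00542 (limma). Probe set 1449176_a_at read 301, 304 and 274 untreated and 171, 182 and 164 in 5AC. Probe set 1428838_a_at read 129, 116 and 134 untreated and 74.1, 70.4 and 74.4 in 5AC. All 3 were lower on every 5AC array than on any untreated array.

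**Figure D2:**
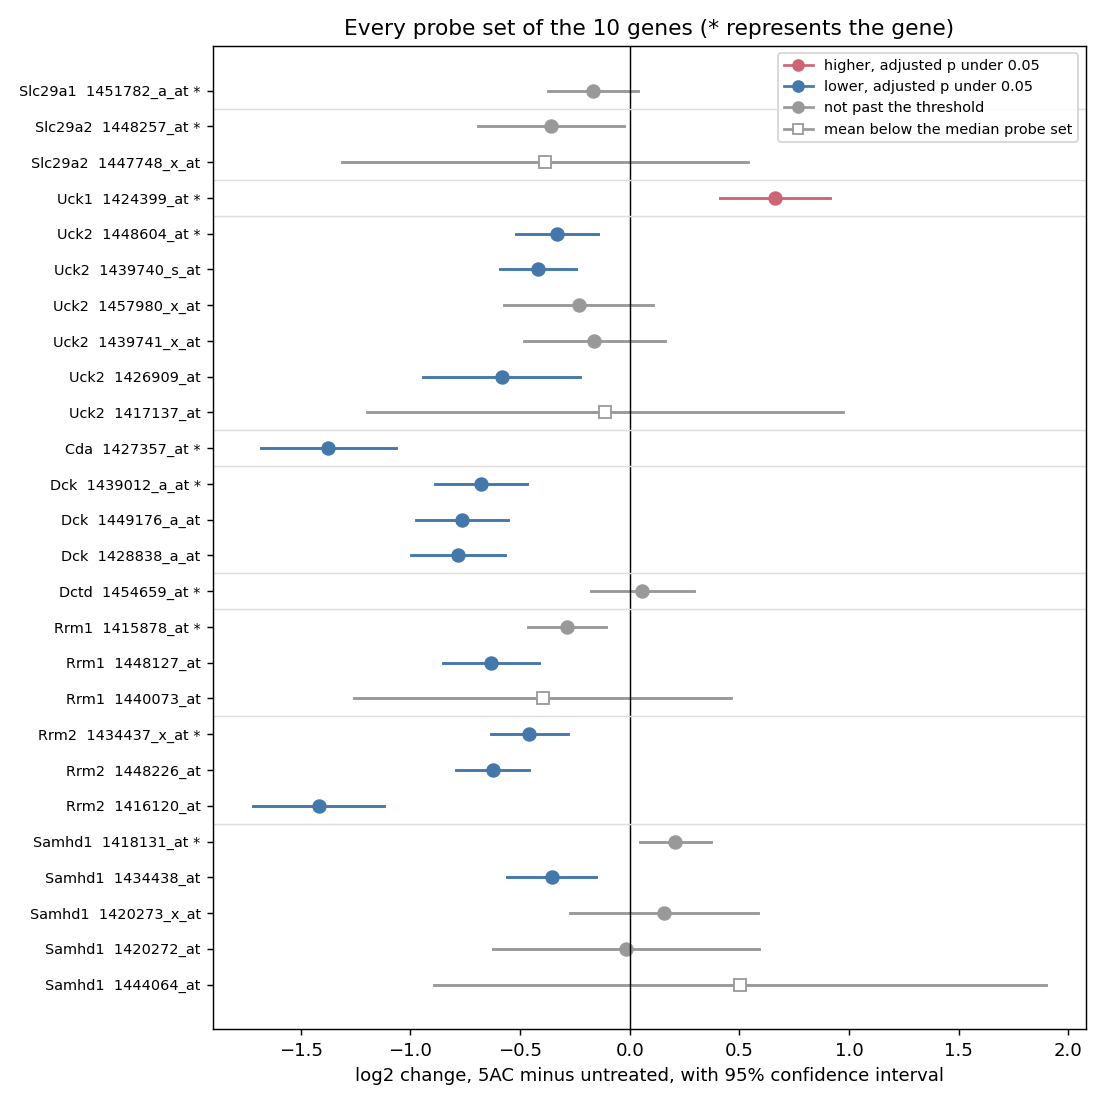
Log2 change, 5AC minus untreated, with its 95% confidence interval for each of the 26 probe sets in the fit of all probe sets; colour shows the call, open squares mark probe sets below the median probe-set mean, and an asterisk marks the probe set that represents the gene. The 3 Dck sets lie close together, the 3 Rrm2 sets spread from -1.42 to -0.46, and the brighter Samhd1 sets fall on either side of 0.

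Ribonucleotide reductase, which makes deoxynucleotides and also the deoxy form of 5AC diphosphate, was lower in both subunits of its S-phase form. Rrm2 encodes the small subunit. Its representing probe set, 1434437_x_at, gave 5158, 4819 and 5081 untreated and 3668, 3547 and 3744 in 5AC. These values did not overlap, and the log2 change was -0.46 ± 0.06 (adjusted p = 0.00404).

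The size of the Rrm2 change differed between its probe sets. Probe set 1448226_at went from 2688, 2586 and 2705 to 1771, 1712 and 1689 (log2 change -0.62 ± 0.07, adjusted p = 0.00523 with limma). Probe set 1416120_at went from 1472, 1374 and 1414 to 549.8, 457 and 594 (-1.42 ± 0.12, adjusted p = 0.00310 with limma). The 95% intervals of these sets, -0.79 to -0.46 and -1.72 to -1.12, do not overlap. An x in the suffix marks a probe set whose probes can also bind other transcripts, and the representing set of Rrm2 is of this kind. In the probe-set fit its adjusted p was 0.0131, and it was 0.0512, 0.0550 and 0.0537 without untreated replicate 1, 5AC replicate 1 and 5AC replicate 2.

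Rrm1 encodes the large, catalytic subunit. Its representing probe set was at 965, 919 and 979 untreated and at 772, 763 and 814 in 5AC, without overlap (log2 change -0.29 ± 0.06, adjusted p = 0.0188). The call was lost without untreated replicate 1 (adjusted p = 0.0622), untreated replicate 3 (0.0545), 5AC replicate 1 (0.0696) and 5AC replicate 2 (0.0662). With the mean of all its probe sets the log2 change was -0.44 (adjusted p = 0.0838).

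A second bright probe set of Rrm1, 1448127_at, gave 862, 827 and 857 untreated and 560.0, 499 and 584 in 5AC. Its log2 change of -0.63 ± 0.09 passed in the probe-set fit (adjusted p = 0.00989 with limma), where the representing set, at -0.29 ± 0.07, had adjusted p = 0.0522. The third, 1440073_at, had mean intensities of 10.2 and 7.48, below the median probe set, with overlapping groups.

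Rrm2b encodes the small subunit that p53 induces and that serves outside S phase. It read 179, 168 and 182 untreated and 169.6, 164 and 162 in 5AC, with overlapping groups and a log2 change of -0.09 ± 0.06 (adjusted p = 0.316). Within arrays, log2 Rrm2 minus log2 Rrm2b was 4.79 to 4.84 untreated and 4.42 to 4.52 in 5AC, a difference in change of -0.37 (pooled SD 0.04). For Rrm1 minus Rrm2 it was -2.42 to -2.37 and -2.25 to -2.20, a difference of 0.17 (pooled SD 0.02). Exact permutation p was 0.10 for each of these pairs, and 0.125 adjusted over the 5 pairs. With probe sets without a suffix letter these differences were -0.53 and 0.34, so their size rests on which probe set is read.

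The start regions of the ribonucleotide reductase genes are shown because both subunits were called lower on their representing sets, though by unequal amounts. CCAAT boxes are again in capitals. They lie at chr7:102441445-102441744 on the plus strand for Rrm1 and chr12:24708004-24708303 on the plus strand for Rrm2 (RefSeq, GRCm38.p6).
Rrm1: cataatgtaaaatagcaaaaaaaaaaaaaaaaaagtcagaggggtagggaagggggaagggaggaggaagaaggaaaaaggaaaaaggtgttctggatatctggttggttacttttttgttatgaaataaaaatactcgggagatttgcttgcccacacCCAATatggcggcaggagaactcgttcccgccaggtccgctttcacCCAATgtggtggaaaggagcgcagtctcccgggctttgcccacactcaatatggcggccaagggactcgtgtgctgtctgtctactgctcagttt
Rrm2: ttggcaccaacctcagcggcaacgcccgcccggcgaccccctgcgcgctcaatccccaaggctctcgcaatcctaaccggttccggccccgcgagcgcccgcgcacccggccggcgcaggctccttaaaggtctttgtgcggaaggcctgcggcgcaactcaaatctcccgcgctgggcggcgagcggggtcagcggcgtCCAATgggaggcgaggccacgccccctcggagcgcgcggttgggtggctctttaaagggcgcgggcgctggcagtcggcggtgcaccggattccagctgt
The Rrm1 window holds 2 CCAAT boxes and the Rrm2 window 1, all on the printed strand. Of all 32851 windows of this length, 37.4% hold CCAAT on either strand. Among the 20 windows of the 10 genes 6 do, or 30.0%, and they belong to 5 of the 10 genes. Since 8 of the 20 windows are of Slc29a1 alone, the share over windows does not compare these genes with all others. The Rrm2 window has 40 CpG dinucleotides, more than 96.1% of all windows, and the Rrm1 window 9, against a median of 7. The E2F words TTTCCCGC, TTTGGCGC, TTTCGCGC and TTTGCCGC, searched on both strands, are in 2.26% of all windows and in 0 of the 20. With so low a share among all windows, 0 of 20 says little. Near matches to these words were not searched, so the windows cannot be said to lack E2F sites. All 10 genes had a window in the table, Slc29a1 8 of them, and their CpG counts ran from 3 to 40.

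Samhd1 encodes a hydrolase that breaks deoxynucleoside triphosphates down, including those of some analogues. The representing probe set was at 185, 191 and 185 untreated and at 217, 213 and 218 in 5AC. The groups were apart and the spread within each was small, so a log2 change of 0.21 ± 0.05 passed in the gene fit (adjusted p = 0.0293). In the probe-set fit the same values had adjusted p = 0.0900.

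The second-brightest Samhd1 probe set, 1434438_at, went the opposite way. It was at 146, 148 and 152 untreated and at 115, 109 and 125 in 5AC (log2 change -0.35 ± 0.08, adjusted p = 0.0401 with limma). Its adjusted p was 0.0561 to 0.122 when any single array was left out. The remaining 3 probe sets had overlapping groups, with log2 changes of 0.16, -0.02 and 0.50. The sets at 0.16 and -0.02 were above the median probe-set mean and the set at 0.50 was below it. With the mean of all 5 the log2 change was 0.10 (adjusted p = 0.668), so the direction for the gene is not settled by these probe sets.

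In all, the probe-set fit called 12 of the 26 probe sets lower, 1 higher and 13 neither, beside 8.75% lower and 8.15% higher among all probe sets. The count of lower ones was 7 without untreated replicate 1 or 5AC replicate 1, and 8 without each of the other arrays. The 12 belong to 6 of the 10 genes: 3 each for Uck2, Dck and Rrm2, and 1 each for Cda, Rrm1 and Samhd1. The single higher call was that of Uck1, with adjusted p = 0.0124, or 0.0535 without 5AC replicate 1. The 4 probe sets below the median probe-set mean were not called in either direction, and the other 22 lay above it. The shares for all probe sets include the dim ones, so they are not matched to the 26 in brightness. Groups were apart for 17 of the 26, beside 36.8% of all probe sets.

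Other genes of nucleoside handling were read from lists by role. Of 7 measured carriers and efflux pumps, 1 was lower and 0 higher, a share of lower genes near the 13.8% among all genes. The one that fell was Abcg2, an efflux pump for many drugs, from 672 ± 12.2 to 418 ± 11.3 (log2 change -0.68 ± 0.05, adjusted p = 0.00113). It passed with each array left out, and the count lower was 2 without untreated replicate 1.

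Of 24 measured genes for pyrimidine and deoxynucleotide synthesis, 10 fell, 3 rose and 11 missed the threshold, with a median log2 change of -0.08. Among all genes 13.8% were lower and 15.5% higher, so the share that rose in this list was not above that of all genes. Thymidine kinase Tk1, the S-phase salvage enzyme for thymidine, fell from 857 ± 19.8 to 279 ± 28.5 (log2 change -1.62 ± 0.09). Shmt2, a mitochondrial enzyme of one-carbon supply, fell from 916 ± 3.40 to 467 ± 21.7 (-0.97 ± 0.06). Ctps2, which makes CTP from UTP, fell from 264 ± 14.7 to 150.4 ± 7.23 (-0.81 ± 0.07), or by -0.43 with the mean of its probe sets. Its paralogue Ctps, named after its values were seen, missed the threshold at 0.22 ± 0.08 (limma adjusted p = 0.101).

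The 3 genes of this list that rose were Nme4, Tk2 and Uckl1; Tk2 and Uckl1 are named after their values were seen. Nme4, a mitochondrial nucleoside diphosphate kinase, went from 38.4 ± 6.28 to 68.2 ± 13.6 (0.80 ± 0.19, adjusted p = 0.0318), with adjusted p of 0.0339 to 0.0936 when single arrays were left out. It kept the call only without 5AC replicate 1. Tk2, the mitochondrial thymidine kinase, rose by 0.70 ± 0.13 and Uckl1, a protein related to the uridine-cytidine kinases, by 0.33 ± 0.08. Without single arrays their adjusted p reached 0.0568 and 0.0907. The number of higher genes in this list was 0 without 5AC replicate 2 or 5AC replicate 3, 1 without any 1 of the untreated arrays and 2 without 5AC replicate 1. The number of lower genes was 6 without any 1 of the 5AC arrays.

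Of 15 measured genes for pyrimidine breakdown and nucleotide removal, 5 fell, 2 rose and 8 missed the threshold (median -0.18). The share that rose was not above the 15.5% among all genes, of which 13.8% were lower. Dctpp1, a pyrophosphatase that removes modified dCTP, fell from 434 ± 17.3 to 256 ± 8.88, and uridine phosphorylase Upp1 from 171 ± 1.64 to 106 ± 13.4. The higher ones were the nucleotidase gene Nt5c, from 408 ± 20.7 to 548 ± 19.3, and Itpa, which hydrolyses inosine triphosphate, from 424 ± 18.4 to 547 ± 5.62; the call of Itpa was absent with the mean of its probe sets (adjusted p = 0.578). The number lower was 2 without untreated replicate 1, 5AC replicate 1 or 5AC replicate 2, and 3 without untreated replicate 2 or 5AC replicate 3.

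Of 8 measured genes for purine nucleoside salvage, 4 were lower and 0 higher (median -0.32), beside 13.8% lower and 15.5% higher among all genes. Hprt, which recovers hypoxanthine and guanine, had the largest change past the threshold, from 1089.7 ± 37.9 to 721 ± 29.9 (-0.60 ± 0.06). Adenosine deaminase Ada was at -0.40 ± 0.07, purine nucleoside phosphorylase Pnp at -0.36 ± 0.06 and adenosine kinase Adk at -0.29 ± 0.05. The call of Pnp was lost without untreated replicate 2 (adjusted p = 0.0502), 5AC replicate 1 (0.0507) and 5AC replicate 2 (0.0501). Adk was at 0.0118 with the mean of its probe sets.

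**Figure D3:**
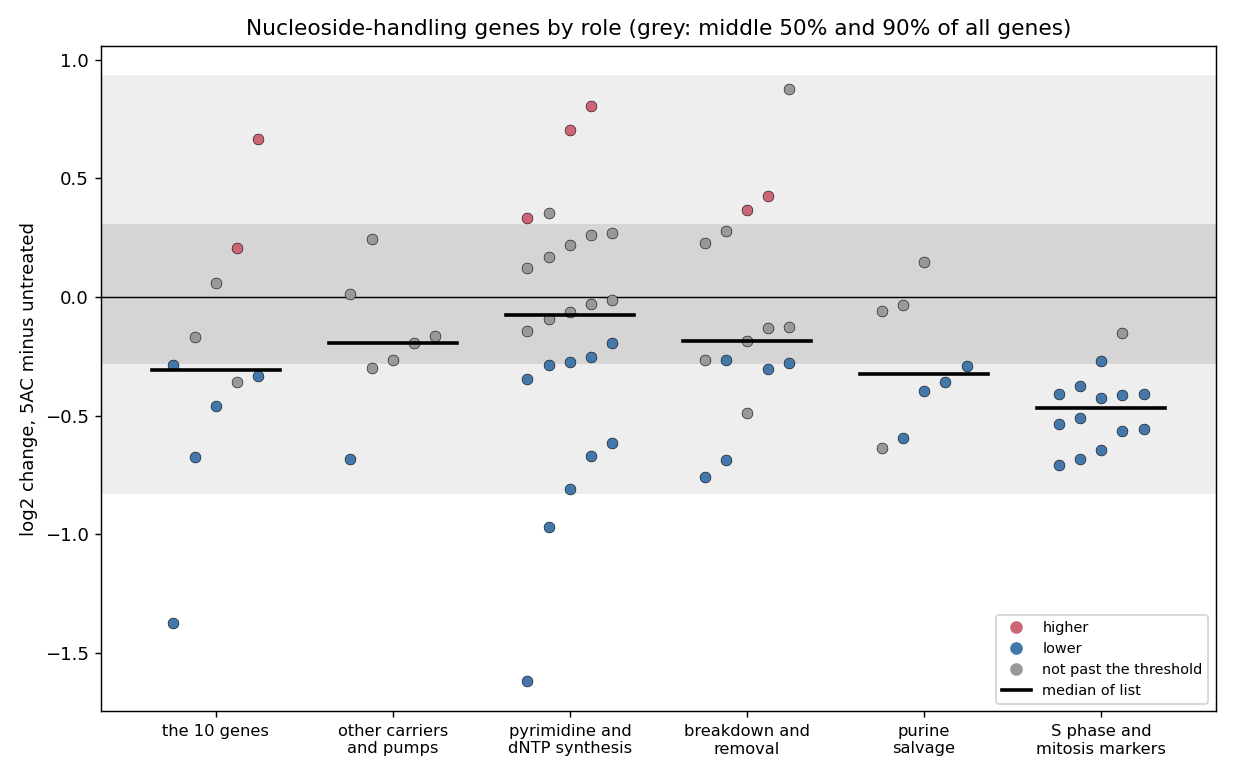
Log2 change, 5AC minus untreated, of each measured gene in the 6 lists; colour shows the call, black bars the list medians, and grey bands the middle 50% (-0.28 to 0.30) and 90% (-0.82 to 0.93) of all genes. Cda, Tk1 and Shmt2 lie below the 90% band, and the S phase and mitosis markers lie below 0 in all 14 cases.

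Markers of S phase and mitosis moved with the ribonucleotide reductase genes. Of 14 such genes, 13 were lower and 0 higher, beside 13.8% lower and 15.5% higher among all genes. Their log2 changes were -0.71 to -0.15, with a median of -0.47. Their summed intensity was 17266 to 17718 on untreated and 11883 to 12727 on 5AC arrays. The largest changes were those of Top2a, a DNA topoisomerase, at -0.71 ± 0.07, the proliferation marker Mki67, at -0.68 ± 0.08, and the mitotic kinase Cdk1, at -0.64 ± 0.06. The log2 changes of Rrm1, Rrm2, Dck and Uck2 on their representing sets, -0.29, -0.46, -0.68 and -0.33, lie within the range of these markers. So do those of the carriers Slc29a1 and Slc29a2, -0.17 and -0.36, which did not pass the test. That of Cda, -1.37, lies below the range, and those of Uck1, Samhd1 and Dctd, 0.66, 0.21 and 0.06, lie above it. The range is wide: 7.09% of all genes had a lower log2 change than Top2a, at its lower end, and 34.6% a lower one than E2f1, at its upper end. Other probe sets of Rrm2 and Dck also lie below that range, at -1.42 for Rrm2 1416120_at and at -0.76 and -0.78 for Dck 1449176_a_at and 1428838_a_at. The part of the markers' change in the results for these genes was not tested.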

How the data were processed

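The authors deposited a table with 1 linear intensity per probe set and array. Per the submitters' processing notes, GCOS 1.4 and R 2.4.1 were used, in roles that are not stated; how values were summarized or normalized is likewise not stated. Between 2.42% and 2.59% of values per array were at or below 0, none of them in the probe sets of the 10 genes; they were set to 0 before log2(intensity + 1). The platform annotation, which can be old, gave 34945 probe sets 1 symbol, 932 several and 9160 none; 64 were controls. All 10 genes matched RefSeq (GRCm38.p6) by Entrez number with the same symbol. Detection calls were not used here.

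Differences were tested two-sided with limma 3.58.1 (lmFit, eBayes; R 4.3.3) on all 6 arrays, with Benjamini-Hochberg adjustment at 0.05, across 18193 genes (the probe set with the highest mean log2 value each) and separately across 45037 probe sets. The 5 ratios within arrays were tested by exact permutation. The procedure was tested on simulated data. Named were all 10 genes and their probe sets, and per list up to 4 genes, or up to 3 of a marker list, with the largest change past the threshold. The genes and lists were chosen with earlier results of these data known. Listed genes not measured by a probe set with 1 symbol were left out of the counts. Alternatives were other scaling, offset, filter, probe-set rule, model and threshold, a replicate block, and each array left out; 1, the highest linear mean per gene, was added after seeing the data. No label states that same-numbered arrays of the groups were paired, and they did not deviate together (correlations of -0.06, 0.03 and 0.02). Numbers were therefore not taken as pairs, though such correlations cannot show that the arrays were unpaired.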

Additional observations from a re-analysis of the deposited data

How the results depend on the processing

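Uck1, Cda, Dck and Rrm2 kept direction and call in the gene fit under each of the 18 alternatives run. Of the 10 genes, 1 instead of 2 was higher with median centring, the mean of all probe sets, the replicate block or a threshold of 0.01, and 3 instead of 5 were lower with the last 3 of these. Leaving out single arrays gave 1 higher and 4 to 5 lower, and for all genes 1841 to 2475 higher (1841 without 5AC replicate 1) and 1834 to 2065 lower. A threshold of 0.01 gave 1437 higher and 1396 lower genes, and the replicate block 1657 and 1559. No label states that same numbers mark pairs, so that block was run as a check. With it 0 probe sets of the 10 genes were called (limma adjusted p = 0.0548 and above), while Uck1, Cda, Dck and Rrm2 were called in the gene fit. The block leaves fewer residual degrees of freedom, and the part of this in the lost calls was not tested. The threshold of 0.01 left 0 higher and 7 lower probe sets, the intensity trend gave 2 higher, and single arrays left out gave 0 to 1 higher and 7 to 8 lower. Carriers and pumps lower numbered 2 with quantile normalization, median centring, an offset of 16, genes with values at or below 0 left out, or the trend, and 3 among genes above the median probe-set mean; 1 was higher with the offset, that filter or the trend, and 1 to 2 were lower with arrays left out. Synthesis genes higher numbered 5 with the offset, 7 with the filter or the trend, 0 at 0.01 and 0 to 2 with arrays left out; lower, 6 with the mean of all probe sets, 5 with the block, 6 at 0.01 and 6 to 7 with arrays left out. Breakdown genes higher numbered 1 with the mean of all probe sets; lower, 2 with that mean, the block or 0.01, 3 without suffix letters and 2 to 4 with arrays left out. Purine salvage genes lower numbered 2 with the block and 1 at 0.01. Rrm1 minus Rrm2 was 0.20 with quantile normalization, 0.40 with the mean of all probe sets and 0.34 without suffix letters; Rrm2 minus Rrm2b was -0.88 with that mean and -0.53 without suffix letters. Signs turned for Adk (0.0118) and Rrm2b (0.0510) with the mean of all probe sets, and, with arrays left out, for Dctd (-0.0016 to 0.11), Uck2 1417137_at (-0.35 to 0.37) and Samhd1 1420272_at (-0.22 to 0.10). Causes were not tested. The added choice of the highest linear mean changed no call of the 10 genes. Intensities near the median probe set, about 20.7, limit what can be read for Slc29a2 and the 4 dimmest probe sets.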
